A study of Homo sapiens with 9 samples.

Results

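The genes described here are 10 human collagen genes: the 3 classic chains of collagen VI (COL6A1, COL6A2 and COL6A3), COL9A3, COL12A1, COL4A1, COL4A2, COL5A1, COL17A1 and COL18A1. Their probe sets were all those annotated to exactly 1 of these symbols, which gave 26 of the 54675 probe sets on the array. They covered 9 of the 10 genes, since no probe set carried the symbol COL17A1 alone and that gene was not analysed here. The whole collagen family of 44 genes had 112 probe sets. The 10 genes were chosen by their log2 signals on these 9 arrays, in all 3 lines, so their values and differences are given as a description, without p-values.

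The cells were of 3 kinds, with 3 arrays each. SCP51, grown from a single cell of SW480/EGFP, was classed as highly metastatic, and SCP58, grown from another single cell, as poorly metastatic. The third was SW480/EGFP itself, the parent population. SW480 is an established human colorectal carcinoma line, and all 3 kinds of cells carried EGFP and grew in the same culture medium, with no drug named. Metastatic behaviour had been compared after the cells were implanted into mice, and the labels give culture conditions for the cells but do not state outright that the RNA was taken from cultures and not from tumours. Each metastatic class was 1 line, so class and line cannot be told apart. The labels name 3 biological replicates per line without saying how they were kept separate, and a p-value therefore reflects array-to-array spread, which may be technical.

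Collagens are made of 3 chains wound into a triple helix after hydroxylation of their prolines and lysines in the endoplasmic reticulum. Collagen VI is unusual in its assembly: an α1, an α2 and an α3 chain form a monomer, monomers pair and pair again inside the cell, and the secreted tetramers join into beaded microfibrils around cells and next to basement membranes. In the wall of the colon it is known mainly as a product of fibroblasts and other stromal cells. Type IV collagen is the network of the basement membrane under the epithelium, and types IX and XII are fibril-associated collagens that sit on the surface of fibrils.

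Array medians lay between signals of 41.1 and 44.3. SCP51 replicate 1 stood apart, with correlations to the other arrays of 0.891 to 0.911 across genes, against 0.945 to 0.979 among the other 8. Of 10 colon epithelial markers, 9 lay above the array median on at least 3 arrays, and KRT20 lay under it on all 9. The summed signal of all 10, by the brightest probe set of each, was 19369 to 24756 in SCP51, 19679 to 21795 in SCP58 and 20449 to 21573 in the parent. Of 11 markers of fibroblasts and stroma, which are the cells best known for collagen VI, 4 passed the same limit. The sums over all 11, passing or not, were 513 to 589 in SCP51, 525 to 575 in SCP58 and 595 to 652 in the parent. COL1A2, COL3A1, FAP, LUM and THY1 were under the median on every array. No marker was called in any comparison. Of all genes, 4.08% were called between SCP51 and SCP58, 2.96% between SCP51 and the parent and 0.14% between SCP58 and the parent.

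A promoter window from RefSeq (assembly GRCh38.p14, 250 bases before to 50 after the start of the gene) was found for 8 of the 10 genes, and COL6A1 and COL9A3 were not matched. The windows of COL6A3 and COL6A2 are shown because these chains of 1 trimer differed unlike each other between the lines, and that of COL12A1 because its brightest probe set lay above the parent in both derived lines. Matches to GGGCGG (the core of a GC box), TATAAA (the TATA box) or CATTCC (the core bound by TEAD factors), searched on both strands, are in capitals. Each is read 5′ to 3′ along the gene.
COL6A3, chr2:237414115-237414414, minus strand: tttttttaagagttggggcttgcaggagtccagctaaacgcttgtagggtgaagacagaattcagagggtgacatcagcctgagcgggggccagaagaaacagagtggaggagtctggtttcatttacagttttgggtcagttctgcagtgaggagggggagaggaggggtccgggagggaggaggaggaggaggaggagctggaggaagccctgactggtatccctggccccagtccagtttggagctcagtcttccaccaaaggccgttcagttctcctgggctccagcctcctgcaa
COL6A2, chr21:46097862-46098161, plus strand: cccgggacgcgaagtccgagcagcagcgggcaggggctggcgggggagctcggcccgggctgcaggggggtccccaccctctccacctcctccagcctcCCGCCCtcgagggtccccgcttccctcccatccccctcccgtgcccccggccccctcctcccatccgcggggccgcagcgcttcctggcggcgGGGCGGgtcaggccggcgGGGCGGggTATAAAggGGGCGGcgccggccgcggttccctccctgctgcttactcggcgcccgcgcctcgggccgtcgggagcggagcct
COL12A1, chr6:75206004-75206303, minus strand: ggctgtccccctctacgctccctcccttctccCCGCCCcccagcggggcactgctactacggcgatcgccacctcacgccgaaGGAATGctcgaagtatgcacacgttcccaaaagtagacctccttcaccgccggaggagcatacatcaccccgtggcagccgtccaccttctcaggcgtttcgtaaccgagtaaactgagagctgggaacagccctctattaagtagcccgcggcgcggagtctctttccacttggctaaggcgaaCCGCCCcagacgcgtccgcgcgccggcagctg

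The COL6A3 window held 4 CpG and none of the 3 motifs. The COL6A2 window held 36 CpG, 4 GGGCGG matches and a TATAAA, which lay 32 bases before the start. The COL6A2 window was the richest in CpG of those shown. The COL12A1 window held 29 CpG, 2 GGGCGG matches and 1 CATTCC match, 167 bases before the start. No matches overlapped. Of all 35116 promoter windows, 24.5% had fewer CpG than COL6A3, 87.3% had fewer than COL6A2 and 75.8% had fewer than COL12A1. GGGCGG occurred in 45.0% of all windows, TATAAA in 11.5% and CATTCC in 14.0%. These are letters in a window, and no measurement here shows what binds there.

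COL6A3 encodes the α3 chain, the longest chain of collagen VI. Its only probe set, 201438_at, had signals of 52.2, 62.9 and 57.4 in SCP51, 19.1, 17.3 and 20.0 in SCP58 and 14.4, 9.88 and 13.1 in the parent. All SCP51 arrays lay above all others, and all SCP58 arrays lay above all parent arrays. On the log2 scale the means were 5.84 ± 0.13 in SCP51, 4.23 ± 0.11 in SCP58 and 3.62 ± 0.28 in the parent (SD, n = 3 each). The difference was 1.61 ± 0.18 between SCP51 and SCP58, a fold of 3.05, and 2.22 ± 0.18 between SCP51 and the parent, a fold of 4.66 (log2, SE). In RNA from bulk samples, more cells with the transcript and more transcript per cell cannot be told apart. Between SCP58 and the parent it was 0.61 ± 0.18. The 6 arrays of SCP58 and the parent were under the array median, where a small change in background moves a fold strongly. COL6A3 passed the limit on low values only through the 3 SCP51 arrays. With 32 added before log2, the differences were 0.82 between SCP51 and SCP58 and 1.01 between SCP51 and the parent.

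COL6A1, which encodes the α1 chain, had 8 probe sets. The brightest, 213428_s_at, had signals of 161, 165 and 177 in SCP51, 96.2, 88.6 and 92.3 in SCP58 and 91.3, 87.0 and 99.6 in the parent. SCP51 stood above both other lines on every array, while SCP58 and the parent overlapped. The log2 difference was 0.86 ± 0.10 between SCP51 and SCP58 and 0.86 ± 0.10 between SCP51 and the parent (SE), each a fold of 1.81. Between SCP58 and the parent it was -0.002 ± 0.10. In order of level, SCP51 came first, and the other lines did not differ beyond their spread (log2 means 6.53 ± 0.06 in SCP58 and 6.53 ± 0.10 in the parent, SD).

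The other 7 COL6A1 probe sets did not share this pattern. Their log2 differences between SCP51 and SCP58 lay between -0.24 and 0.19. Probe set 212940_at had 49.9, 48.3 and 51.3 in SCP51 against 46.5, 41.3 and 47.8 in SCP58, which did not overlap, and 50, 46.2 and 47.8 in the parent. Probe set 212938_at ran the other way between SCP51 and the parent, with 35.8, 41.8 and 37.2 in SCP51 against 42.2, 48.6 and 45.6 in the parent. Probe set 214200_s_at was bright on 2 arrays of different lines, with 212, 8.05 and 13.0 in SCP51, 11.8, 137 and 14.1 in SCP58 and 10.9, 10.5 and 10.6 in the parent. Of the 8 probe sets, 4 lay above the array median on at least 3 arrays, and their mean differed by 0.14 between SCP51 and SCP58 and by 0.06 between SCP51 and the parent (log2). The COL6A1 difference therefore rests on 213428_s_at. The probes' positions in the transcript were not used here.

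**Figure D1:**
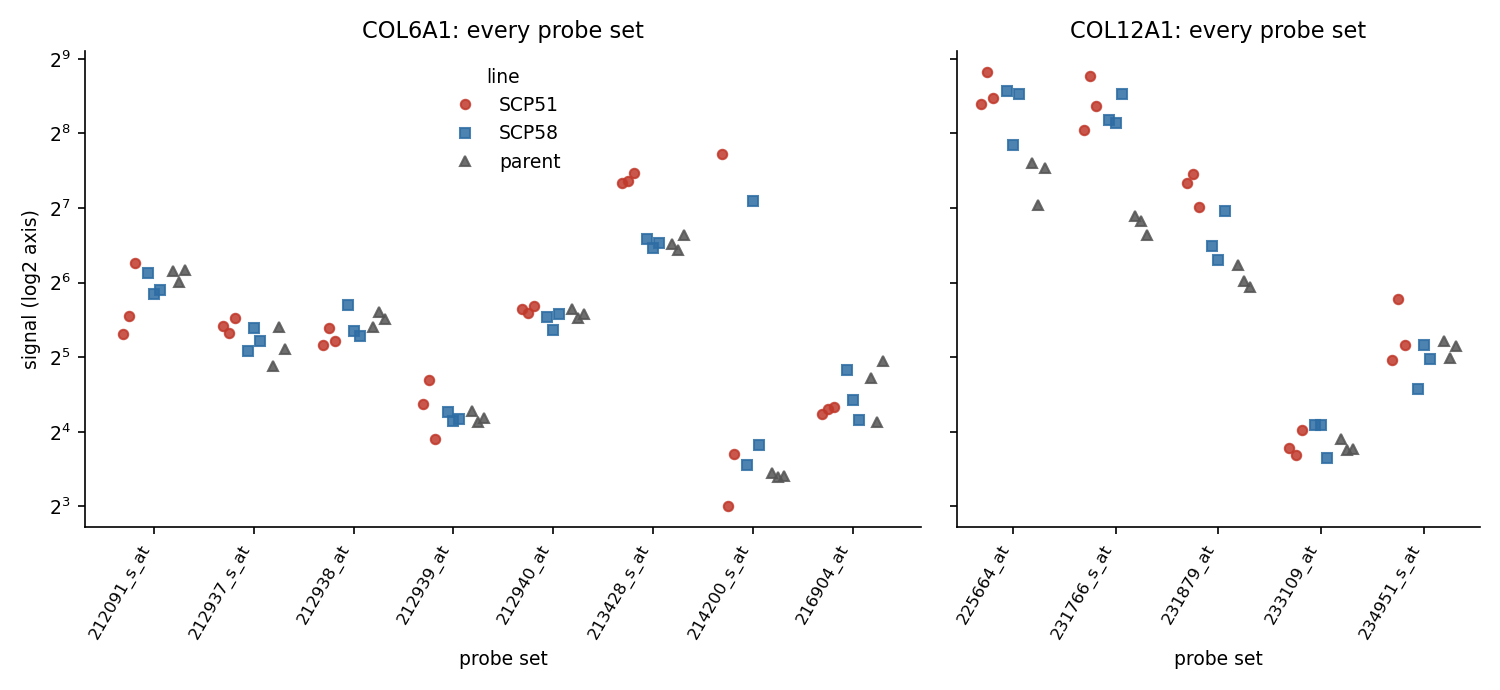
Signal of every probe set of COL6A1 (8, left) and COL12A1 (5, right) on each of the 9 arrays; the vertical axis is the signal on a log2 axis, the horizontal axis the probe set, and each point is 1 array of SCP51 (circles), SCP58 (squares) or the parent (triangles). In COL6A1, SCP51 parts from the other lines at 213428_s_at, and 214200_s_at is high on 1 SCP51 and 1 SCP58 array; in COL12A1 the 3 bright probe sets put the parent lowest. Heights of different probe sets cannot be compared.

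COL6A2 encodes the α2 chain and lies beside COL6A1 on chromosome 21. Its brighter probe set, 209156_s_at, had 106, 107 and 121 in SCP51, 116, 86.0 and 99.9 in SCP58 and 77.6, 99.4 and 102 in the parent. SCP51 overlapped SCP58 and lay just above the parent. The log2 differences were 0.15 ± 0.15 between SCP51 and SCP58, 0.27 ± 0.15 between SCP51 and the parent and 0.11 ± 0.15 between SCP58 and the parent (SE). The dimmer 213290_at, under the array median on 8 of 9 arrays, overlapped in every comparison, at 0.21 and 0.38 for SCP51 against SCP58 and the parent.

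COL9A3 encodes the α3 chain of collagen IX, which is best known from cartilage, where it coats fibrils of collagen II. Its probe set had 170, 124 and 176 in SCP51, 90.3, 65.5 and 60.4 in SCP58 and 70.5, 58.1 and 63.0 in the parent. The SCP51 arrays did not overlap with either other line, and SCP58 overlapped with the parent. The log2 difference was 1.12 ± 0.19 between SCP51 and SCP58, a fold of 2.18, and 1.28 ± 0.19 between SCP51 and the parent, a fold of 2.43 (SE). Between SCP58 and the parent it was 0.16 ± 0.19.

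COL12A1 encodes collagen XII, a homotrimer that bridges fibrils of collagen I and other matrix proteins. Its brightest probe set, 225664_at, had 335, 451 and 354 in SCP51, 379, 229 and 370 in SCP58 and 195, 131 and 185 in the parent. SCP51 and SCP58 overlapped, and both lay above the parent on every array. The log2 difference was 1.17 ± 0.24 between SCP51 and the parent, 0.92 ± 0.24 between SCP58 and the parent and 0.25 ± 0.24 between SCP51 and SCP58 (SE). Probe set 231766_s_at had 264, 438 and 331 in SCP51, 290, 283 and 369 in SCP58 and 119, 113 and 100 in the parent, and its differences from the parent were 1.61 for SCP51 and 1.5 for SCP58. Probe set 231879_at had 161, 176 and 129 in SCP51, 89.6, 79.0 and 124 in SCP58 and 75.3, 65 and 61.2 in the parent. In that probe set SCP51 was also above SCP58 on every array, by 0.69. The dim 233109_at and 234951_s_at differed from the parent by 0.02 and 0.18 in SCP51 and overlapped in every comparison.

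**Figure D2:**
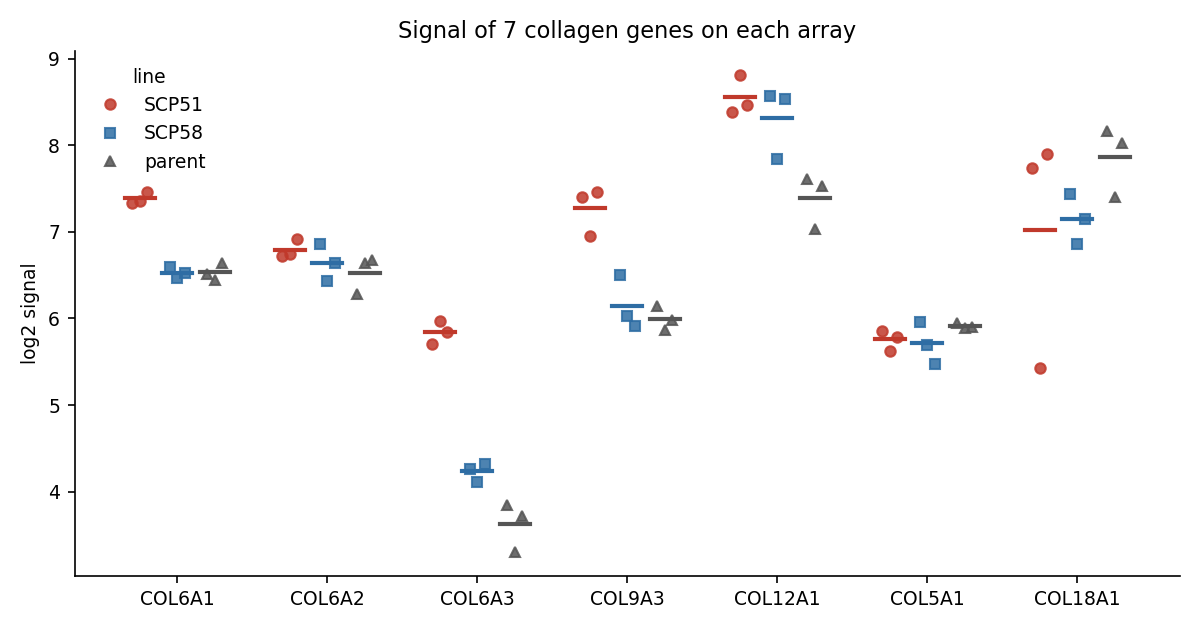
Log2 signal of COL6A1, COL6A2, COL6A3, COL9A3, COL12A1, COL5A1 and COL18A1 on each array, by the brightest probe set of each gene; each point is 1 array of SCP51 (circles), SCP58 (squares) or the parent (triangles) and each bar the mean of 3. SCP51 stands above both other lines in COL6A1, COL6A3 and COL9A3, both derived lines stand above the parent in COL12A1 and COL6A3, and 1 SCP51 array of COL18A1 is far below the others. Heights of different genes cannot be compared.

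COL4A1 and COL4A2, the chains of the common type IV collagen, were under the array median on all 9 arrays in all 4 of their probe sets, so neither was tested. COL4A1 probe set 211981_at had 32.8, 18.9 and 38.6 in SCP51, 39.3, 33.9 and 29.4 in SCP58 and 35.1, 37.4 and 36.9 in the parent. The brighter COL4A2 probe set, 211966_at, had 20.7, 19.9 and 19.6 in SCP51, 19.9, 19.3 and 14.7 in SCP58 and 18.2, 18.3 and 15.3 in the parent. Both COL4A2 probe sets had SCP51 above the parent without overlap, by 0.22 and 0.31 log2 units, at signals where background weighs heavily. The genes stand head to head on chromosome 13 with starts 127 bases apart, so their promoter windows shared 226 bases and each held 45 CpG.

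COL18A1, a basement membrane collagen whose end is released as endostatin, gave probe sets that went different ways. The brighter one, 209082_s_at, had 214, 43.2 and 238 in SCP51, 173, 116 and 142 in SCP58 and 287, 169 and 262 in the parent. SCP51 replicate 2 was far below the other arrays of its line, and the SD there was 1.38 log2 units. The differences were -0.12 ± 0.59 between SCP51 and SCP58 and -0.84 ± 0.59 between SCP51 and the parent, and without SCP51 replicate 2 they were 0.67 and -0.048. The other, 209081_s_at, had 82.6, 81.4 and 97.2 in SCP51, 86.6, 56.3 and 67.5 in SCP58 and 79.9, 73.0 and 78.0 in the parent, with SCP51 above the parent on every array by 0.17.

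COL5A1 encodes the α1 chain of collagen V, which is built into collagen I fibrils and limits their width. Probe set 203325_s_at had 58.0, 49.5 and 55.2 in SCP51, 62.4, 51.9 and 44.5 in SCP58 and 61.6, 59.4 and 59.8 in the parent. SCP51 lay under the parent on every array, by a difference of -0.16 ± 0.14, and overlapped SCP58 (0.05 ± 0.14, SE). Its other 2 probe sets were under the median on all arrays.

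The limit on low values left 13 of the 26 probe sets and 7 of the 10 genes. A gene is said to be called when limma's p, adjusted over all 13598 genes, was under 0.05. Between SCP51 and SCP58, COL6A1, COL6A3 and COL9A3 were called, all higher in SCP51, where 4.08% of all genes were called and 1.48% called higher. Between SCP51 and the parent the same genes and COL12A1 were called, all higher, where 2.96% of all genes were called and 1.38% called higher. Between SCP58 and the parent none of the 7 was called, where 0.14% of all genes were. The 2 comparisons of SCP51 share its arrays, and the genes were picked with these differences known, so nothing is read from these counts. The arrays did not overlap in 3 of 7 genes between SCP51 and SCP58 (25.1% of all genes), in 6 between SCP51 and the parent (28.1%) and in 2 between SCP58 and the parent (17.0%).

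The calls of COL6A1 held without each array in turn and were lost when its probe sets were averaged, and those of COL6A3 held without each of the 6 arrays of SCP58 and the parent. Without any 1 SCP51 array, or with that limit set at the 65th percentile, COL6A3 no longer passed the limit on low values. The genes were chosen by these same values, so calls that held in these refits add no support. The COL9A3 call against SCP58 was lost when only the 6 arrays of these lines were fitted, and without SCP58 replicate 2 or 3, with differences of 1.01 to 1.06, and its call against the parent without parent replicate 2 or 3, at 1.21 to 1.27. The COL12A1 call was lost in 11 of 20 alternatives, among them without any 1 of SCP51 replicates 2 and 3, parent replicates 1, 2 and 3, and SCP58 replicates 1 and 3, at 0.99 to 1.28. When each of 29166 probe sets was fitted by itself, 3 of the 13 were called between SCP51 and SCP58 (3.35% of all) and 5 between SCP51 and the parent (1.89%). Those 5 held 231766_s_at and 231879_at of COL12A1, and 225664_at was not called. In that fit 231766_s_at was also called between SCP58 and the parent, where 0.134% of all probe sets were.

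Of the other 34 collagen genes, 16 were tested, and none was called in any of the 3 comparisons by limma. At an unadjusted p under 0.05 there were 2 of 16 between SCP51 and SCP58 (21.3% of all genes), 4 between SCP51 and the parent (19.6%) and 1 between SCP58 and the parent (8.6%). Their median log2 differences were -0.10, -0.08 and -0.04 in these comparisons, against -0.11, -0.10 and -0.00044 over all genes. Each collagen was fitted on its brightest probe set, and with every probe set by itself, 0 of the 25 probe sets of the other collagens were called.

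Among these, COL1A1, the main chain of collagen I fibrils, had log2 signals of 7.04, 7.01 and 7.24 in SCP51, 7.39, 7.38 and 6.98 in SCP58 and 7.25, 7.42 and 7.38 in the parent. SCP51 lay under the parent on each array, with a difference of -0.25 ± 0.14 (limma adjusted p = 0.35). COL13A1, a transmembrane collagen of cell adhesions, had 7.33, 7.95 and 7.92 in SCP51, 7.30, 6.90 and 6.94 in SCP58 and 5.81, 7.10 and 6.90 in the parent. In this COL13A1 probe set, 211343_s_at, SCP51 stood above both other lines on every array, but with a wide spread: 0.69 ± 0.33 against SCP58 and 1.13 ± 0.33 against the parent (limma adjusted p = 0.278 and 0.118). Probe sets 208535_x_at and 211809_x_at of COL13A1, above the median on all 9 arrays, did not share this. Their differences were 0.015 and 0.035 between SCP51 and SCP58, and -0.012 and -0.002 between SCP51 and the parent.

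COL4A5 and COL5A2 are named because their values were seen to lie nearest the limit. COL4A5, a chain of the basement membrane network, differed by 0.70 ± 0.18 between SCP51 and SCP58 (limma adjusted p = 0.0711). COL5A2, the partner chain of COL5A1, had 5.21, 4.94 and 5.00 in SCP51, 5.57, 5.64 and 5.75 in SCP58 and 5.69, 5.30 and 5.57 in the parent, with a difference of -0.60 ± 0.14 from SCP58 (limma adjusted p = 0.0523). With array weights both were called between SCP51 and SCP58, COL13A1 and COL5A2 between SCP51 and the parent, and COL4A5 between SCP58 and the parent. COL5A2 was also called lower in SCP51 than in SCP58 with 32 added before log2 and with no intensity trend. The same held without SCP51 replicate 1 and without parent replicate 2. Its other probe set, 221730_at, under the array median on every array, overlapped between SCP51 and SCP58, at -0.18.

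**Figure D3:**
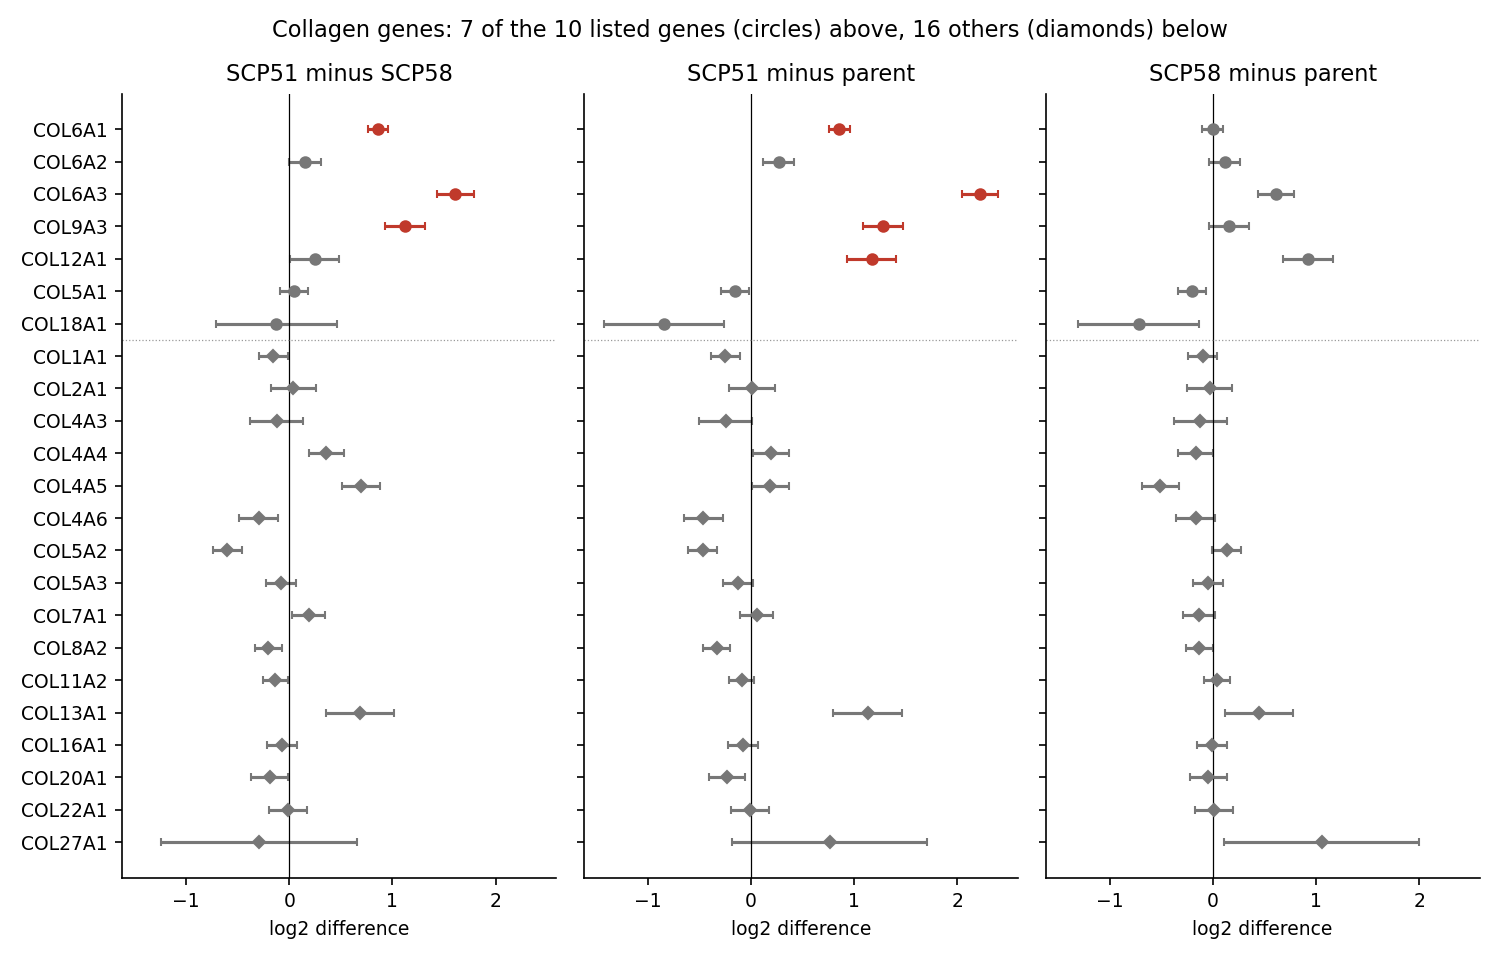
Log2 differences of 23 collagen genes in the 3 comparisons (horizontal axes; one gene per line), with SE as bars; circles are 7 of the 10 genes described, diamonds the 16 other collagens, and red marks an adjusted p under 0.05. Red symbols are seen at COL6A1, COL6A3 and COL9A3 in both SCP51 comparisons and at COL12A1 in SCP51 minus parent, and none among the other collagens.

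Genes that make, process, bind or accompany collagens were examined in 4 lists of 75 genes, of which 57 were tested. Between SCP51 and SCP58, 5 were called higher and 1 lower; between SCP51 and the parent, 4 higher and 1 lower; between SCP58 and the parent, 0, where 0.14% of all genes were called. There 6 of the 57 had an unadjusted p under 0.05, against 8.6% of all genes. Higher calls made up 1.48% and 1.38% of all genes in the SCP51 comparisons, and lower calls 2.6% and 1.58%.

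In the biosynthesis list, 26 of 27 genes were tested. SERPINH1, the collagen chaperone HSP47 of the endoplasmic reticulum, was the 1 called between SCP51 and SCP58. Its log2 signals were 9.63, 9.87 and 9.73 in SCP51, 8.73, 8.52 and 8.72 in SCP58 and 9.63, 9.34 and 9.53 in the parent. SCP51 was higher than SCP58 by 1.09 ± 0.13 (limma adjusted p = 0.0052) and the call held in all 20 alternatives. SCP51 differed from the parent by 0.24 ± 0.13 (limma adjusted p = 0.323), and SCP58 from the parent by -0.84 ± 0.13 (limma adjusted p = 0.0578). The order of the lines was therefore another one than for COL6A1, with SCP58 apart. FKBP7, a prolyl isomerase of the endoplasmic reticulum, was lower in SCP51 than in the parent, with 5.47, 5.25 and 5.35 in SCP51, 5.59, 5.55 and 5.19 in SCP58 and 6.004, 5.991 and 6.167 in the parent (-0.70 ± 0.14, limma adjusted p = 0.0376). That call was lost without SCP51 replicate 2 or 3, SCP58 replicate 2 or any 1 parent array (adjusted p 0.0626 to 0.15). It was also lost after centring on the 75th percentile, with only the 6 arrays fitted and with a replicate block. Of the prolyl and lysyl hydroxylases of the list, none was called in these comparisons, but some were under alternatives. P3H1, PLOD1 and P4HA1 are named after those calls were seen. P3H1 was called in both SCP51 comparisons without SCP51 replicate 1 and with array weights. Between SCP51 and SCP58, PLOD1 was called with array weights and P4HA1 without parent replicate 2, and PLOD1 was also called between SCP58 and the parent with array weights.

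In the list of processing and crosslinking genes, 11 of 16 were tested and 2 were called higher in each SCP51 comparison. Both encode lysyl oxidase-like enzymes, which oxidise lysines so that collagen and elastin can be crosslinked. LOXL4 had log2 signals of 7.18, 7.45 and 7.55 in SCP51, 6.47, 6.36 and 6.28 in SCP58 and 6.17, 6.29 and 6.42 in the parent. It was higher in SCP51 by 1.02 ± 0.13 against SCP58 and 1.10 ± 0.13 against the parent (limma adjusted p = 0.00678 and 0.00419). When its probe sets were averaged these were 0.39 and 0.44 (limma adjusted p = 0.094 and 0.0811). LOXL2 had 7.75, 7.89 and 8.03 in SCP51, 6.49, 5.97 and 6.29 in SCP58 and 6.53, 7.35 and 6.71 in the parent. It was higher in SCP51 by 1.64 ± 0.22 against SCP58 (limma adjusted p = 0.0085) and by 1.03 ± 0.22 against the parent (limma adjusted p = 0.0489). When its probe sets were averaged, the difference from SCP58 was 0.55 (limma adjusted p = 0.0443). The LOXL2 call against the parent was lost in 12 of 20 alternatives, among them the mean of its probe sets (0.35) and leaving out SCP51 replicate 2 or 3, parent replicate 1 or 3, or any 1 SCP58 array (adjusted p 0.061 to 0.185).

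In the receptor list, 10 of 15 genes were tested and 1 was called. ADGRG1, an adhesion receptor known to bind collagen III, was lower in SCP51 than in SCP58. It had 7.10, 7.75 and 7.78 in SCP51, 8.69, 8.50 and 8.43 in SCP58 and 8.22, 8.41 and 8.59 in the parent. The difference was -0.996 ± 0.202 against SCP58 (limma adjusted p = 0.035) and -0.86 ± 0.20 against the parent (limma adjusted p = 0.0633). The call was lost without SCP51 replicate 2, any 1 parent array or any 1 SCP58 array (adjusted p 0.0554 to 0.12). It was also lost when its probe sets were averaged, at -0.53 (limma adjusted p = 0.135), when only the 6 arrays were fitted and with a replicate block. ITGB1 and ITGA2, the β1 and α2 integrin chains of a collagen receptor, were picked after their values were seen. ITGB1 differed by 0.27 ± 0.09 and ITGA2 by 0.34 ± 0.14 between SCP51 and SCP58 (limma adjusted p = 0.127 and 0.203). ANTXR2 and DDR2, also picked with their values known, ran the other way. Their differences were -0.563 ± 0.135 and -0.652 ± 0.238 (limma adjusted p = 0.0556 and 0.166). ANTXR2 was called lower in SCP51 than in SCP58 with array weights and without SCP51 replicate 1. Of the 10 receptors tested, 4 had a difference above 0 in that comparison. With every probe set fitted by itself, an ITGA2 probe set was called in both SCP51 comparisons. An FN1 probe set, of the matrix partners, was also called there between SCP51 and SCP58, and FN1 is named for that call. In that fit 3.35% of all probe sets were called against SCP58 and 1.89% against the parent.

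Of 17 matrix partners, 10 were tested and 2 were called higher in SCP51 in both comparisons. THBS1, thrombospondin-1, a secreted matrix glycoprotein, had log2 signals of 10.06, 10.95 and 10.59 in SCP51, 8.90, 8.41 and 8.96 in SCP58 and 8.18, 7.74 and 8.10 in the parent. It was higher in SCP51 by 1.78 ± 0.25 against SCP58 and by 2.53 ± 0.25 against the parent (limma adjusted p = 0.00902 and 0.00236), and no alternative lost either call. FBLN1, fibulin-1, had 6.35, 6.73 and 6.54 in SCP51, 5.88, 5.73 and 5.85 in SCP58 and 5.845, 5.87 and 5.999 in the parent. Its differences were 0.72 ± 0.12 and 0.64 ± 0.12 (limma adjusted p = 0.0196 and 0.0325). The FBLN1 call against SCP58 was lost without any 1 SCP51 array or SCP58 replicate 2 or 3 (adjusted p 0.0652 to 0.69). That against the parent was lost without any 1 array other than SCP58 replicate 1 (adjusted p 0.058 to 0.946). Without any 1 SCP51 array the probe set with the highest mean was 201787_at in place of 202994_s_at, at 0.11 to 0.16 against SCP58. When its probe sets were averaged, both FBLN1 calls were lost, at 0.49 against SCP58 and 0.37 against the parent.

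**Figure D4:**
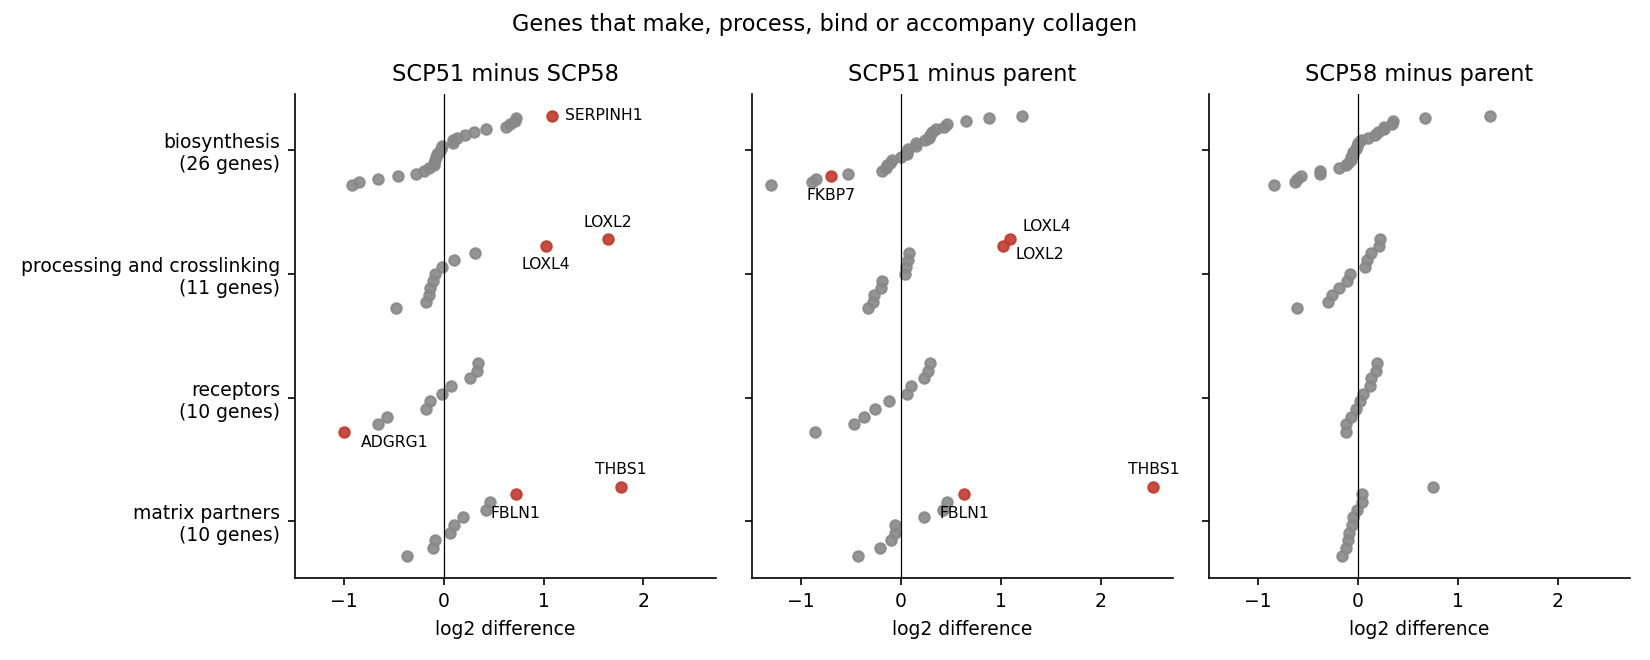
Log2 differences of the 57 genes of 4 lists (rows) in the 3 comparisons (panels; horizontal axis, log2 difference); each point is 1 gene, sorted by its difference within a row, and red points with a name have an adjusted p under 0.05. SERPINH1, LOXL2, LOXL4, THBS1 and FBLN1 lie to the right in SCP51 minus SCP58 and ADGRG1 to the left, and SCP58 minus parent has no red point.

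The genes outside the family whose log2 signal ran most like that of each collagen VI chain over the 9 arrays were found by Pearson correlation, as a description. The arrays share their 3 lines, so a gene with 1 line apart correlates with any other such gene. LOXL4 (r = 0.984), TRAPPC2 (0.983) and PUDP (0.982) ran closest to COL6A1, and each had SCP51 apart by about the same in both comparisons. THBS1 (0.987), RBMS2 (0.984) and ENTPD2 (0.983) ran closest to COL6A3, with RBMS2 at 0.85 against SCP58 and 1.34 against the parent (log2). ZSCAN22 (0.928), SIRT5 (0.919) and ACTN1 (0.895) ran closest to COL6A2, all with differences of 0.22 or less. Among the collagens, COL6A1 had r = 0.952 with COL6A3, 0.945 with COL9A3 and 0.594 with COL6A2, and COL6A3 had 0.540 with COL6A2 (n = 9 arrays).

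COL6A1, COL6A2 and COL18A1 lie on chromosome 21, so their tested neighbours were compared with them. Of the 6 nearest tested genes around COL6A1 and COL6A2 (COL18A1, SLC19A1 and PCBP3 on one side, FTCD, LSS and MCM3AP-AS1 on the other), 0 were called in any comparison. Their median differences were -0.05 between SCP51 and SCP58, -0.13 between SCP51 and the parent and -0.18 between SCP58 and the parent. The 6 around COL18A1 were LINC00334, POFUT2, LINC00205, SLC19A1, PCBP3 and COL6A1, of which COL6A1 was the 1 called. Around COL4A1 and COL4A2 on chromosome 13 they were LIG4, ABHD13, IRS2, RAB20, NAXD and CARS2, and 0 of these 6 were called. Over all genes, 4.08% were called between SCP51 and SCP58, 2.96% between SCP51 and the parent and 0.14% between SCP58 and the parent. With 6 genes per region, 0 called is near these shares, and nothing is read from it.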

How the data were processed

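The 9 arrays were Affymetrix arrays hybridised with biotin-labelled cRNA made from total RNA, per the labels' protocols. The deposited values are linear intensities that the authors made with GCOS 1.4, per the submitters' processing notes. For its scaling and background the sources used here give nothing. A floor of 1 was applied (514 values lay below it, 3 of them at 0) before log2 was taken. The number of arrays limits the precision. The 62 control probe sets were left out. Probe sets that exceeded the array median on 3 or more arrays were kept (29166). Annotated symbols (41091 probe sets with 1, 1801 with several, 11721 with none) were brought to current names by their Entrez identifiers, using RefSeq's GRCh38.p14 table (99.9% matched). Each gene was represented by its probe set of highest mean log2 signal, giving 13598 genes. The arrays' genome build is not given, so that table served for names, chromosomes and gene order.

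Differences were fitted with limma 3.58.1 (R 4.3.3): 1 mean per line over all 9 arrays, moderated variances with an intensity trend, and two-sided p with Benjamini-Hochberg adjustment across the 13598 genes, called under 0.05. The script was tested on simulated data. Figures were drawn with matplotlib 3.10.9. Values are per array, and differences carry the SE of the fit with n = 3 per line.

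The genes, lists and tests were chosen with earlier results of these data known. Named genes are all 10 collagens with their probe sets, other collagens called or among the 2 brightest, up to 3 called genes of each list and comparison with the smallest p, the 3 most similar genes to each collagen VI chain, and the 3 nearest tested genes on either side. Genes outside this rule are said to be so. Alternatives for the values were a filter at the 65th percentile or none, 32 added before log2, centring on the 75th percentile, and quantile normalization. Alternatives for the fit were array weights, no trend, a replicate block, averaging or separating the probe sets of a gene, fitting just the 6 arrays of a comparison, leaving out each array, an adjusted p under 0.01 and a 2-fold limit.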

Additional observations from a re-analysis of the deposited data

How the results depend on the processing

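Over single genes and comparisons, 544 alternatives kept direction and side of the threshold, 70 lost a call and 10 turned an uncalled value. The 544 include values uncalled in the main fit, which had no call to lose. Alternatives in which a gene was not tested were not counted, as for COL6A3 with the 65th-percentile filter or without 1 SCP51 array. The collagen genes called between SCP51 and SCP58 (3) became 5 with array weights, 4 with 32 added before log2 or with no trend, and 2 to 4 when 1 array was left out. Those called between SCP51 and the parent (4) became 6 with array weights (5 higher and 1 lower in SCP51), 2 at an adjusted p under 0.01, and 2 to 4 with 1 array left out, the 2 coming without SCP51 replicate 2 or 3 or parent replicate 2 or 3. Between SCP58 and the parent the count of 0 (3 at an unadjusted p under 0.05) became 1 with array weights and 1 with every probe set by itself. Of the 57 collagen handling genes, the 6 called between SCP51 and SCP58 became 9 with array weights and 3 with averaged probe sets, and 4 to 7 with 1 array left out. The 5 called between SCP51 and the parent became 8 with array weights, 2 with averaged probe sets, 2 with only the 6 arrays compared, 2 at an adjusted p under 0.01 and 3 with a 2-fold limit, and 2 to 6 with 1 array left out. Between SCP58 and the parent the count of 0 became 6 with array weights and 1 without SCP51 replicate 1 (0 to 1 with 1 array left out). The causes were not tested. Shares of all genes called with array weights, averaged probe sets or 1 array left out are not given here. The shifts in these counts are therefore not read as particular to collagen or handling genes. Same-numbered arrays of different lines correlated from -0.22 to 0.133 in their deviations from the group means. Differently numbered arrays correlated from -0.125 to 0.121. No pairing by number was seen, though 3 arrays per line cannot exclude it. With a replicate block, 3, 3 and 0 collagen genes and 4, 2 and 0 handling genes were called, in the order of comparisons above. Uncalled values that turned sign were COL6A1 between SCP58 and the parent (0.051 without parent replicate 3, 0.028 without SCP58 replicate 2, and -0.046 to 0.051 over the arrays left out), COL6A2 there (-0.071 with array weights, -0.011 without parent replicate 1, up to 0.222), COL9A3 there (-0.018 without SCP58 replicate 1, up to 0.272), COL5A1 between SCP51 and SCP58 (-0.005 without SCP51 replicate 1, -0.072 without SCP58 replicate 3, up to 0.171) and COL18A1 there (0.103 with the mean of its probe sets, 0.671 without SCP51 replicate 2, 0.020 without SCP58 replicate 1, down to -0.561). The split of all calls between SCP51 and SCP58 was 201 higher and 354 lower, against 319 and 302 after quantile normalization and 312 and 298 after centring; between SCP51 and the parent it was 187 and 215, against 246 and 169, and 247 and 183. Signals under the array median limit COL6A3, COL4A1 and COL4A2.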

Other observations

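The bright COL6A1 probe set 214200_s_at on SCP51 replicate 1 and SCP58 replicate 2 was set beside other probe sets after its values were seen. On those arrays together, 53 probe sets were at least 4-fold above each of the other 7 arrays. The same count was 105 for SCP51 replicate 1 with SCP58 replicate 3 and 49 for SCP51 replicate 1 with SCP58 replicate 1. Pairs without SCP51 replicate 1 gave counts of 0 to 2. Probe set 225293_at of COL27A1, a fibrillar collagen, was likewise high on the first pair of arrays, with log2 signals of 8.15, 5.16 and 5.34 in SCP51, 5.80, 8.44 and 5.30 in SCP58 and 5.28, 5.64 and 5.45 in the parent. Probe set 225292_at of the same gene was not, with signals of 51.5 and 69.5 on that pair and 46.0 to 77.3 on the other 7 arrays.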
